A study of Drosophila melanogaster with 12 samples.

Results

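Head transcripts were compared between the light phase and the dark phase of 1 light-dark day (LD) in flies without a working timeless gene. The light phase was sampled at ZT2, ZT6 and ZT10, and the dark phase at ZT14, ZT18 and ZT22, with ZT counted in hours from lights-on. These 6 arrays, 3 a phase, were chosen by the hour in their titles from the 12 arrays of the study. All flies were y w; tim01 (Drosophila melanogaster): they carry a loss-of-function allele of timeless, a core gene of the circadian clock, and the marker mutations y and w, of which w lies in the gene for a transporter of eye pigment precursors. They had lived through 3 days of 12 h light and 12 h darkness before sampling. The other 6 arrays cover the next day, in constant darkness (DD), at subjective day hours CT2, CT6 and CT10 and subjective night hours CT14, CT18 and CT22. All groups thus share genotype and the light-dark days before sampling, the labels give no sex or age, and no wild-type arrays were used here. Each array held RNA from about 100 to 200 pooled heads, and values are log2 RMA signals, where a difference of 1 is a doubling.

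In wild-type fly heads, transcripts that differ between day and night follow the clock, the light itself, or activity and feeding that go with them. Without timeless the clock loop does not run, while the compound eyes still see: rhodopsin activates a phospholipase cascade that opens the trp and trpl channels, and arrestins, calcium and retinoid recycling reset it. Heads also hold brain, glia, muscle and a fat body that makes lipids, yolk proteins and antimicrobial peptides. In such whole heads, fewer cells of a type and less RNA per cell cannot be told apart.

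The arrestin genes Arr2 and Arr1 of the eye read 11.76 to 12.09 and 11.01 to 11.37 on the 6 LD arrays. They were the brightest of 19 measured phototransduction genes, of which 4 averaged under 5, among them Galphaq at 3.30. The neuronal gene elav was dim, at 3.55 to 4.09, as 9 of 12 neuron markers averaged under 5, and the glial gene repo read 5.09 to 5.57. Levels of different probe sets were not used to compare amounts of tissue. Correlations between LD arrays ran from 0.991 to 0.997 across probe sets. Libraries at ZT2, ZT18 and CT2 stood apart: with each gene set relative to its own mean of 12 arrays, 45 gut enzyme genes had a median of 0.29, 0.03 and 0.16 there (in this order), while the remaining 9 arrays ran from -0.14 to -0.02. For 32 male reproductive genes these medians were 0.57, 0.14 and 0.26, with -0.15 to -0.03 elsewhere. For the lists described most closely, medians are also given without ZT2 and without both ZT2 and ZT18. The part of such transcripts in other differences was not tested. The signal of tim itself was 7.12, 7.05 and 6.93 in the light and 6.92, 6.87 and 6.97 in the dark, and its contrast did not pass (0.11 ± 0.09, SE; limma, adjusted p = 0.943). The position of that probe set relative to the tim01 lesion was not examined.

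The question was which transcripts differ with the lights when the clock loop is broken. Of 13966 probe sets, 18 passed a Benjamini-Hochberg adjusted p of 0.05 with limma (0.129%), 9 higher and 9 lower in the light. Those with 1 gene symbol are Usp8, CG4757, CG5455, CAH5, Lsd-1 and NAT1, higher in the light, and retinin, M7BP, CG6429, CG8468, Def, CG8157, Drat, Epac and rdhB, lower in the light. They include genes of endosomal sorting, carbon dioxide hydration, lipid droplets, retinoid recycling, the corneal lens and antimicrobial defence. The arrays of a phase are different hours, so errors and p-values come from differences among hours that share a phase. That spread was estimated over all 12 arrays, so the 6 DD arrays also enter these errors and p-values.

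Among the transcripts higher in the light, CG5455 had the widest gap between the phases. It read 6.91, 7.13 and 7.06 at ZT2, ZT6 and ZT10, against 6.23, 6.09 and 6.21 at ZT14, ZT18 and ZT22. The lowest light array stood 0.68 above the highest dark array, a gap wider than the range within either phase (0.22 in the light and 0.13 in the dark). The difference was 0.86 ± 0.10 (SE), or 1.81-fold (limma, adjusted p = 0.0026), and in DD the same hours gave -0.06 ± 0.10.

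CAH5 encodes a carbonic anhydrase, an enzyme that interconverts carbon dioxide and bicarbonate. Its signal was 7.18, 7.41 and 7.60 in the light and 6.67, 6.66 and 6.70 in the dark. All light arrays lay above all dark arrays, and within the light the value was higher at each later hour, whereas the dark values lay within 0.04 of each other. The difference was 0.72 ± 0.09 (limma, adjusted p = 0.0026), and the DD contrast was 0.45 ± 0.09. Of the 11 other carbonic anhydrase genes, none passed. CAH7 came closest with 6.49, 6.64 and 6.61 in the light and 6.22, 6.06 and 6.39 in the dark, also without overlap (0.36 ± 0.08, limma, adjusted p = 0.139).

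Usp8 encodes a deubiquitinating enzyme that acts on cargo and sorting proteins at endosomes. It had 7.64, 8.08 and 8.19 in the light and 7.47, 7.05 and 6.67 in the dark. The phases did not overlap, but the gap was only 0.17, since the signal climbed through the light and declined through the dark. The difference was 0.90 ± 0.16, the largest among the named genes that passed (limma, adjusted p = 0.0443), and in DD it was 0.05 ± 0.16. It no longer passed when any of ZT6, ZT10, ZT18, ZT22, CT6, CT10, CT14, CT18 or CT22 was left out.

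Lsd-1 encodes perilipin 1, a protein of the lipid droplet surface that governs the release of stored fat. The signal was 8.15, 8.20 and 8.25 in the light and 7.88, 7.44 and 7.65 in the dark. Light arrays lay within 0.10 of each other and above all dark arrays (0.54 ± 0.10, limma, adjusted p = 0.0443). In DD the order was turned, with 7.55, 7.81 and 7.70 in the subjective day against 7.87, 7.93 and 8.07 in the subjective night (-0.27 ± 0.10).

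NAT1 encodes a relative of the translation initiation factor eIF4G. It read 5.19, 5.40 and 5.40 in the light and 4.71, 4.81 and 4.96 in the dark, without overlap (0.51 ± 0.09, limma, adjusted p = 0.03). Its DD arrays were also separated the other way, at -0.23 ± 0.09. CG4757 was dim, with 3.19, 3.91 and 3.57 in the light against 2.70, 2.81 and 2.58 in the dark (0.86 ± 0.14, limma, adjusted p = 0.03), and its day-night contrast passed in DD as well (1.01 ± 0.14, limma, adjusted p = 0.00782). So among these 6 named genes, CAH5 and CG4757 had DD contrasts of the same sign and over 0.4, and CG5455 and Usp8 had DD contrasts near 0.

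The transcripts lower in the light were led by retinin, which encodes a protein of the corneal lens. Its levels were 9.31, 9.34 and 9.63 in the light and 10.30, 10.04 and 10.11 in the dark. The phases were separated by 0.41, with the highest light value at the end of the light and the highest dark value just after lights-off (-0.72 ± 0.11, limma, adjusted p = 0.0158). The DD contrast was nearly as large and passed too (-0.62 ± 0.11, limma, adjusted p = 0.0333).

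rdhB encodes a retinol dehydrogenase of the pathway that recycles the chromophore of rhodopsin. It had 6.91, 6.996 and 7.03 in the light and 7.22, 7.59 and 7.47 in the dark. No light array reached the dark range, and the 6 DD arrays lay between 7.37 and 7.44, inside the range of the LD dark phase. The LD difference was -0.45 ± 0.08 (limma, adjusted p = 0.0443). Epac, which encodes a guanine nucleotide exchange factor activated by cAMP, read 4.38, 4.50 and 4.54 in the light and 4.87, 5.11 and 4.92 in the dark (-0.49 ± 0.08, limma, adjusted p = 0.03). Its DD contrast was 0.00 ± 0.08. The other 7 genes of the cAMP list did not pass, among them the adenylyl cyclase gene rut (-0.11 ± 0.12) and the phosphodiesterase gene dnc (-0.07 ± 0.07).

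Drat, named for an alcohol dehydrogenase domain, had 7.43, 7.33 and 7.25 in the light and 7.61, 7.98 and 8.02 in the dark (-0.53 ± 0.10, limma, adjusted p = 0.0459). Its LD pattern was a decline through the light and a climb through the dark, while the DD arrays stayed between 7.80 and 8.001. CG8468 read 4.78, 4.65 and 4.33 in the light against 5.16, 5.37 and 5.13 in the dark (-0.63 ± 0.10, limma, adjusted p = 0.03), and its DD contrast was -0.03 ± 0.10. M7BP, which encodes a binding partner of myosin 7a, had 4.09, 4.18 and 3.99 in the light and 4.78, 4.92 and 4.56 in the dark (-0.66 ± 0.12, limma, adjusted p = 0.0443). In both genes the phases were more than 0.35 apart.

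Def, the gene of the antimicrobial peptide defensin, read 5.96, 6.35 and 6.28 in the light and 6.95, 6.66 and 6.86 in the dark (-0.62 ± 0.12, limma, adjusted p = 0.0443). Its phases did not overlap, nor did they in DD, where the contrast was -0.38 ± 0.12. CG8157 had 5.19, 5.46 and 5.41 in the light and 5.87, 5.99 and 5.96 in the dark, again with the same separation in DD (-0.59 ± 0.10 in LD and -0.36 ± 0.10 in DD). CG6429 was at 5.08, 5.49 and 5.50 in the light and 5.88, 6.17 and 5.92 in the dark (-0.64 ± 0.12), with 0.18 ± 0.12 in DD.

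**Figure D1:**
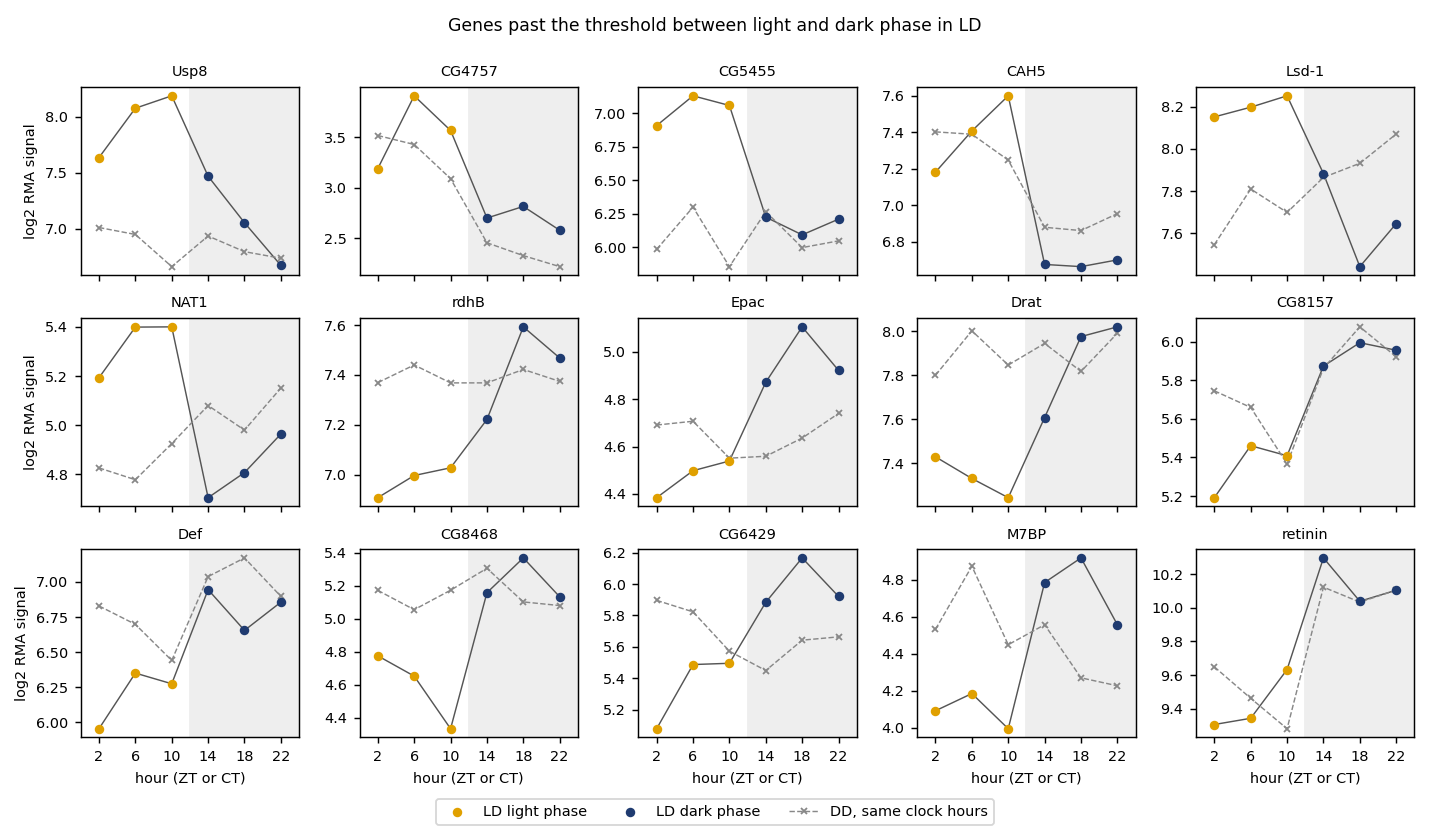
Log2 RMA signal (vertical axes, each with its own range) of the 15 named genes that passed between light and dark phase, by hour; filled points are the LD arrays, 1 a time point, grey crosses the DD arrays of the same clock hours, and the shaded hours are those of darkness in LD. CG5455 stays high through the light, and Usp8 climbs and declines. In retinin, CAH5, CG4757, Def and CG8157 the DD day and night arrays are separated the same way as in LD, with other courses within the day.

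Across the 18 probe sets, 10 had a DD contrast of the same sign, 5 were separated the same way in DD, 3 were separated the opposite way and 2 passed in DD as well. A test of the difference between the LD and DD contrasts called 0 of 13966 probe sets with limma (0%). Of these, 727 had an unadjusted p under 0.05, and the smallest adjusted p was 0.0898. The transcripts above with a DD contrast near 0 are therefore not shown to differ between the days by that test.

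How firmly each gene passed differed widely over 23 alternative ways of fitting the same arrays. CG5455 passed in 23 of 23, with a difference of 0.81 to 0.92, and CAH5 in 22. retinin passed in 19 and NAT1 in 15. The counts were 13 for CG8157 and CG8468, 10 for Usp8, 9 for Def, Lsd-1 and CG6429, and 8 for Drat and rdhB. CG4757 passed in 13, Epac in 12 and M7BP in 11 of 22. No difference of a named gene that passed changed its sign. Without ZT2, ZT18 and CT2, 31 probe sets passed, 9 of them among the 18. Fitted on the 6 LD arrays alone, only CG5455 passed.

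Genes were then read through all of their probe sets. Of 1209 genes with several probe sets, all probe sets had the same sign in 567 (46.9%), and the differences of the 2 brightest correlated at 0.14 across genes, which are not independent replicates. Among the 101 genes whose probe sets all averaged 5 or more, the share was 55.4% and the correlation 0.28, and among the 10 at 7 or more it was 80.0% and 0.32.

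M7BP, Epac and CG8468 have further probe sets, and these did not pass. For M7BP, whose called probe set is dim, the brighter sets gave -0.11 ± 0.09 and -0.01 ± 0.10, and the other dim sets -0.10 ± 0.12 and 0.02 ± 0.08. For Epac the second probe set, near the bottom of the scale at 2.64 to 2.91, gave -0.04 ± 0.09. For CG8468 the brighter set was also separated between phases, but at a smaller difference of -0.13 ± 0.08, with 6.37, 6.30 and 6.32 in the light and 6.47, 6.39 and 6.52 in the dark.

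All probe sets were separated in the same direction in 14 genes (1.16%), 5 higher and 9 lower in the light. The clearest was CG13947, at 6.71, 6.61 and 6.47 in the light and 6.93, 7.16 and 7.02 in the dark by 1 probe set, and at 6.72, 6.58 and 6.65 against 6.96, 6.997 and 6.85 by the other. Both sets place all dark arrays above all light arrays (-0.44 ± 0.10 and -0.29 ± 0.09). These sets carry neighbouring numbers, and whether they share probes was not examined, so their agreement is not independent support. Dgk, a diacylglycerol kinase gene, gave -0.32 ± 0.09 by a dim set averaging 2.34, and -0.18 ± 0.07 by the other. Mnt, a partner of Max in transcription, gave -0.17 ± 0.08 and -0.21 ± 0.08. NKAIN was higher by 0.30 ± 0.12 and 0.15 ± 0.07, and Taf4, a subunit of the general transcription factor TFIID, by 0.20 ± 0.09 and 0.14 ± 0.07. Apart from the 1 set of CG8468, none of these probe sets passed the adjusted threshold.

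Beyond the transcripts that passed, 785 probe sets (5.62%) had all light arrays above all dark arrays and 916 (6.56%) all light arrays below. In DD, where no light came on, 754 were separated with the day higher and 673 with the day lower. With 3 arrays a phase, chance ordering alone separates some probe sets, and whether the LD counts exceed that number was not tested. Separation without a passing contrast therefore describes the values and is not evidence that a gene differs with the light. With 1 probe set per gene, the brightest, the LD shares were 5.82% and 6.24% of 10844 genes. A gap of at least 0.2 between the phases left 31 higher and 24 lower, of which 15 passed. From these 55, trpl, rtp and PIP82 were picked by name as genes of photoreceptor proteins. Photoreceptor genes were not counted among the 55, and none of the picked ones passed. trpl, the gene of a light-gated cation channel, read 9.75, 10.06 and 10.32 in the light and 9.55, 9.14 and 9.47 in the dark. Every light array was above every dark array and the light values climbed with the hour (0.66 ± 0.13, limma, adjusted p = 0.0602). rtp, which encodes the photoreceptor protein retinophilin, had 9.50, 9.71 and 9.54 in the light and 9.12, 9.21 and 9.18 in the dark, with a DD contrast of -0.01 ± 0.09. PIP82, also expressed in photoreceptors, was separated too, at 6.47, 6.58 and 6.44 in the light and 6.01, 5.85 and 6.20 in the dark. The adjusted p was 0.127 for rtp and 0.124 for PIP82 (limma).

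Gene groups are described by the brightest probe set of each gene. Over all 10844 genes, 48.3% had a positive light-dark difference and the median was 0.00; of 38 lists, not counting an endosomal list added later, 17 had a median above 0. Of all 10844 genes, 5.82% had all light arrays above all dark arrays and 6.24% all below. Counts of separated genes in the lists stand beside these shares. In short lists, a few separated genes are not read as a result about the list. Separation alone is not read as an effect of light on a gene. Lists below were chosen with earlier results of these arrays known, so their direction is not independent evidence, and none was tested as a set.

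Chaperone genes were mostly above their dark levels in the light. Of 19 genes for heat shock proteins, cognates and chaperonin subunits, 16 had a positive difference, the median was 0.18, and 8 had all light arrays above all dark arrays, with 0 the other way. None passed. Hsc70-4, the main constitutive Hsp70 of the cytosol, read 9.13, 9.15 and 9.11 in the light and 8.86, 8.76 and 8.87 in the dark (0.30 ± 0.09, limma, adjusted p = 0.357). The phases were 0.24 apart, with little spread within either. Its co-chaperone gene DnaJ-1 had 6.53, 6.71 and 6.59 in the light against 6.33, 6.38 and 6.33 in the dark, and the chaperonin subunit genes CCT2 and CCT5 had differences of 0.30 ± 0.10 and 0.27 ± 0.09. The strongly heat-inducible Hsp68 was at -0.12 ± 0.09. The median of the list was 0.18 without ZT2, 0.15 without ZT2 and ZT18, and -0.04 in DD.

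Genes of lipid synthesis and lipid droplets mostly had the sign of Lsd-1. Of 21 measured, 19 had a positive difference, with a median of 0.16, and 5 were separated with the light above the dark. Lsd-1 alone passed. Dgat2, for the last step of triglyceride synthesis, was dim, at 3.82, 3.75 and 3.77 in the light against 3.45, 3.24 and 3.45 in the dark (0.40 ± 0.09, limma, adjusted p = 0.166). Pect and Pcyt1, which activate ethanolamine and choline for phospholipids, had differences of 0.37 ± 0.09 and 0.27 ± 0.09. The fatty acid synthase gene FASN1 was at 9.16, 9.37 and 9.10 in the light and 9.28, 8.82 and 8.87 in the dark, so that ZT14 still lay in the light range. The median was 0.14 without ZT2, 0.13 without ZT2 and ZT18, and -0.03 in DD. Of 9 genes of fatty acid oxidation, 3 had a positive difference.

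**Figure D2:**
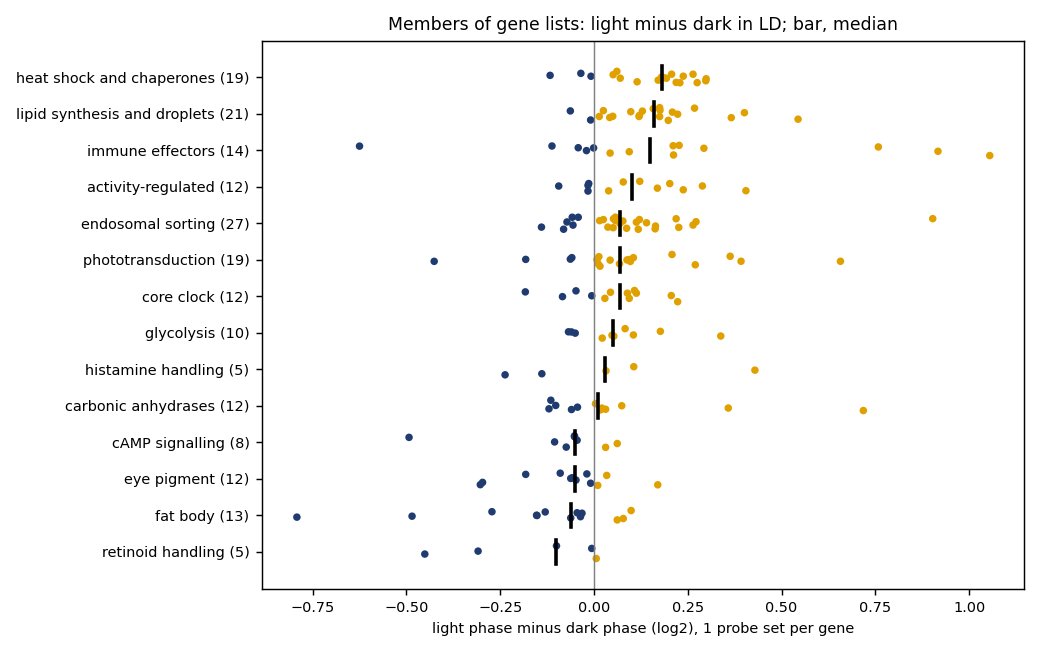
Light minus dark difference in LD (log2, horizontal axis) of each gene in 14 lists, with the number of genes beside the list's name; each point is 1 gene by its brightest probe set, yellow above and blue below 0, and the black bar is the list's median. Chaperone and lipid genes lie mostly right of 0, retinoid, fat body and eye pigment genes mostly left, and the immune effectors spread from -0.62 to 1.06.

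**Figure D3:**
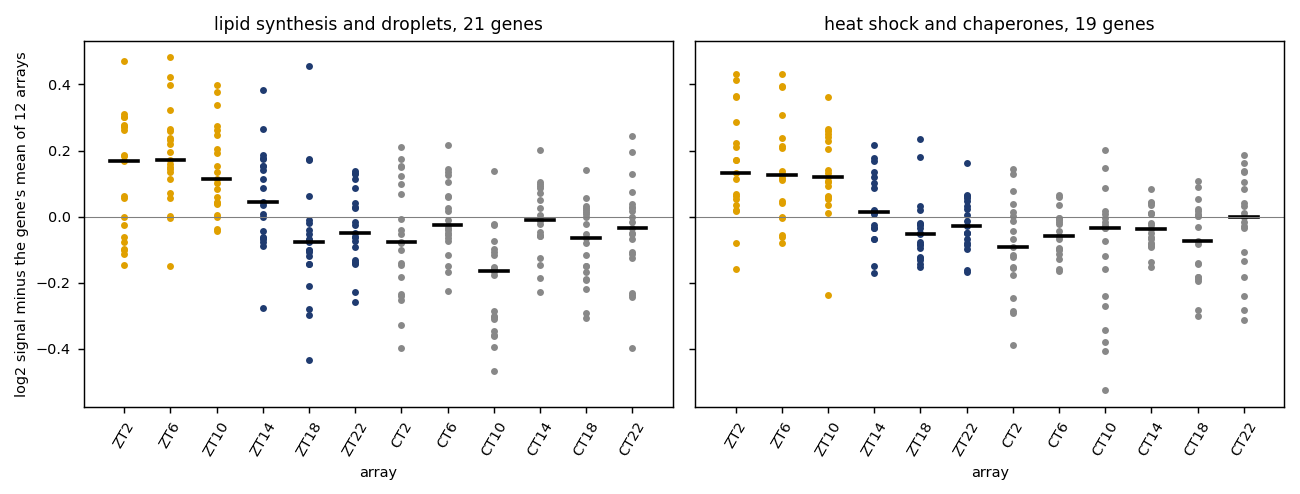
Log2 signal of each gene minus its mean of 12 arrays (vertical axis), by array, for the lipid and the chaperone list; yellow is the LD light phase, blue the LD dark phase, grey DD, and black bars are medians. The 3 light arrays have medians of 0.12 to 0.17, above those of the dark arrays, at -0.08 to 0.05, and of the DD arrays, at -0.17 to 0.00.

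By array, the median chaperone gene stood at 0.13, 0.13 and 0.12 in the light and 0.01, -0.05 and -0.03 in the dark, and the median lipid gene at 0.17, 0.17 and 0.12 in the light and 0.05, -0.08 and -0.05 in the dark. In both lists the light arrays were above the dark arrays, and ZT14 was the highest of the dark ones. The DD arrays stayed between -0.09 and 0.00 for chaperones and between -0.17 and -0.01 for lipid genes.

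Usp8 works on ubiquitinated cargo with the proteins Hrs and Stam, and a list of 27 endosomal sorting genes was added after Usp8, Hrs, Snx3 and Snx27 were seen among the separated genes. In it 21 genes had a positive difference, the median was 0.07, and 6 were separated with the light above the dark and 1 below. Without the 4 genes that prompted the list, 18 of 23 were positive, with a median of 0.06, and 3 were separated upward, ALiX, Stam and Vps37B, and 1, Vps29, downward. The median of all 27 was 0.13 without ZT2 and 0.13 without ZT2 and ZT18. Hrs read 6.75, 6.81 and 6.83 in the light and 6.50, 6.54 and 6.53 in the dark. The spread within a phase was under 0.10 and the gap over 0.2 (0.27 ± 0.07, limma, adjusted p = 0.193). Snx3, a sorting nexin gene, had 7.11, 7.07 and 7.08 in the light and 6.80, 6.87 and 6.79 in the dark, Stam had a difference of 0.23 ± 0.08, and ALiX of 0.22 ± 0.08. Vps29, a subunit of the retromer, was lower in every light array (-0.14 ± 0.07). Snx27 depends on the probe set: the dimmest gave 0.30 ± 0.08 and the brightest -0.08 ± 0.09. Of 21 ubiquitin-specific protease genes, by contrast in count, 9 had a positive difference and Usp8 alone passed.

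Among 19 phototransduction genes, 15 had a positive difference, with a median of 0.07, and none passed. In DD, where no light came on, 15 of the 19 were positive as well, with a median of 0.03. The rhodopsin genes and norpA, of the phospholipase, were on the list as drawn up but are not among these 19. They had no probe set with a single symbol under those names. Without ZT2, 14 were positive, with a median of 0.07, and without ZT2 and ZT18 11 were, with a median of 0.04. After trpl, the largest were inaD, the scaffold that holds the cascade together, at 8.70, 8.77 and 8.39 in the light and 8.09, 8.19 and 8.40 in the dark, and inaC, the eye protein kinase C, at 7.71, 7.92 and 7.62 in the light and 7.32, 7.38 and 7.46 in the dark. inaC was separated, while inaD had ZT10 and ZT22 at the same level. The arrestin genes Arr1 and Arr2 were at -0.06 ± 0.10 and 0.10 ± 0.10. rdgC, the gene of the rhodopsin phosphatase, was lower in the light on average (-0.43 ± 0.14, limma, adjusted p = 0.519), with overlap.

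Retinoid genes leaned the other way: 4 of 5 were negative, with a median of -0.10. Beside rdhB, Pdh, a dehydrogenase of retinal pigment cells, read 9.33, 9.33 and 9.30 in the light and 9.54, 9.69 and 9.66 in the dark. All light values lay within 0.04 of each other and 0.21 below the dark (-0.31 ± 0.08, limma, adjusted p = 0.22). The list's median was -0.01 without ZT2 and -0.12 without ZT2 and ZT18. Of 12 eye pigment genes, 9 were negative and none passed. In DD 3 of the 12 were positive, with a median of -0.06. pr, for a step of pteridine synthesis, and st, for a pigment precursor transporter, were separated (-0.30 ± 0.08 and -0.30 ± 0.09). Their DD contrasts were -0.27 and 0.11. The list of lens proteins held retinin and Cpr72Ec, which differed in sign: Cpr72Ec had 10.15, 10.33 and 10.16 in the light and 9.73, 9.60 and 10.09 in the dark (0.41 ± 0.13, limma, adjusted p = 0.482).

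The immune effectors had the widest spread of the lists in the plot of differences by list. Mtk, DptB and Drs, the genes of metchnikowin, a diptericin and drosomycin, had differences of 1.06 ± 0.28, 0.92 ± 0.20 and 0.76 ± 0.16, while Def fell. DptB read 7.05, 7.78 and 7.62 in the light and 6.56, 6.53 and 6.61 in the dark. ZT2 was the lowest light array of all 3 peptide genes, and in Mtk it lay level with ZT14, at 8.07. None of the 3 passed (limma, adjusted p = 0.28 for Mtk, 0.125 for DptB and 0.109 for Drs), and without ZT2 all 3 did. Their DD contrasts were larger, at 1.67, 1.27 and 1.16. Of the 14 genes of the list, 9 were positive, 5 were separated upward and 1, Def, downward, and the median was 0.15 (0.23 without ZT2 and 0.20 without ZT2 and ZT18).

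Fat body genes leaned to the dark, with 10 of 13 negative and a median of -0.06 (-0.07 without ZT2 and -0.12 without ZT2 and ZT18). In DD 3 of the 13 were positive, with a median of -0.04. Obp99a had 8.64, 8.80 and 7.99 in the light and 9.77, 8.99 and 9.04 in the dark, and the yolk protein gene Yp2 13.36, 13.27 and 12.97 in the light and 13.61, 13.38 and 13.42 in the dark. Both were separated, with their lowest value at ZT10 and their highest at ZT14. The DD contrasts of Obp99a and Yp2 were -0.49 and -0.10. Neither passed (limma, adjusted p = 0.211 for Obp99a and 0.703 for Yp2), and the yolk protein signals are near the top of the scale.

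Core clock genes showed no contrast that passed. Of 12 measured, 8 were positive, with a median of 0.07, and cry, the blue light photoreceptor gene, and per were separated. cry read 6.81, 6.79 and 6.67 in the light and 6.43, 6.61 and 6.56 in the dark (0.22 ± 0.07, limma, adjusted p = 0.47). per read 4.88, 4.90 and 4.89 in the light and 4.82, 4.68 and 4.86 in the dark (0.11 ± 0.08). Among 12 activity-regulated genes, 8 were positive and none passed. sr, an immediate early transcription factor gene, was the largest at 4.93, 4.84 and 4.64 in the light and 4.61, 4.21 and 4.38 in the dark (0.41 ± 0.10, limma, adjusted p = 0.193), and Hr38 was at -0.02 ± 0.08.

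Further list medians were read with all arrays, without ZT2, and without ZT2 and ZT18. The gut list had a median of 0.10, of -0.09 without ZT2 and of -0.02 without ZT2 and ZT18. For the male reproductive list these medians were 0.15, -0.10 and -0.03, so both turned sign. Of 69 oxidative phosphorylation genes, 13 were positive with all arrays, 25 without ZT2 and 16 without ZT2 and ZT18, with medians of -0.08, -0.02 and -0.06. Of 37 ribosomal protein genes, 11, 17 and 15 were positive, with medians of -0.05, -0.01 and -0.03. Cuticle proteins, with 30 of 92 positive, had medians of -0.04, -0.04 and -0.07, and odorant-binding proteins, with 10 of 36, had -0.05, -0.04 and -0.03. Markers of neurons (6 of 12 positive), glia (7 of 11), muscle (8 of 16) and hemocytes (5 of 10) had medians of -0.01 to 0.04.

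Other groups held single genes that were separated without passing. Of 10 glycolysis genes, 7 were positive, with a median of 0.05 and of -0.11 in DD. Hex-A, a hexokinase gene, read 6.16, 6.10 and 6.06 in the light and 5.72, 5.69 and 5.90 in the dark (0.34 ± 0.11, limma, adjusted p = 0.508). Of 14 genes of insulin signalling and feeding state, 4 were positive and 3, among them foxo, a transcription factor gene restrained by insulin (-0.17 ± 0.09), were separated with the light below the dark. Over all genes, 6.24% were separated that way. Among 23 neuropeptide genes, 10 were positive, Capa was higher by 0.27 ± 0.08 and Nplp3 lower by -0.30 ± 0.09. ort, the gene of the histamine receptor on which photoreceptors act, had 4.71, 4.85 and 4.92 in the light and 5.10, 5.02 and 5.07 in the dark. Cytochrome P450 genes (36 of 83 positive), glutathione S-transferases (22 of 36), proteasome subunits (21 of 39) and translation initiation factors (21 of 37) had medians of -0.01 to 0.04.

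The steps at the light switches were read from neighbouring arrays, 1 array a side, so they carry no test. At lights-off, from ZT10 to ZT14, 52 probe sets rose and 67 fell by over 0.5 (0.852%). The lights-on step set ZT2 against ZT22, which was sampled 20 h after ZT2 at the end of the same dark phase. There 180 stood higher and 44 lower by over 0.5 (1.6%). In the intervals without a switch, 58 rose and 153 fell from ZT2 to ZT6, 15 and 37 from ZT6 to ZT10, 71 and 35 from ZT14 to ZT18, and 30 and 62 from ZT18 to ZT22.

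Most large lights-on steps were steps of the libraries that stood apart. Of 65 probe sets that rose by over 1.0, 52 had ZT2, ZT18 and CT2 above all other 9 arrays, and 1 was also above by 0.5 at ZT6 relative to ZT22. Of the 65, 31 (47.7%) also stood over 1.0 higher at CT2 than at CT22, where no light came on, which is 73.8% of the 42 that did so in DD. Cyp4g1, a cytochrome P450 gene of oenocytes, read 9.95, 4.47 and 4.64 in the light and 3.72, 7.88 and 4.11 in the dark. It is high at ZT2 and ZT18 and also at CT2 (8.47), the libraries that stood apart. Its signal was also raised at CT6 (6.12), where the gut and male lists had medians of -0.02 and -0.14. The contrast of Cyp4g1 did not pass (1.12 ± 1.24, limma, adjusted p = 0.96).

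**Figure D4:**
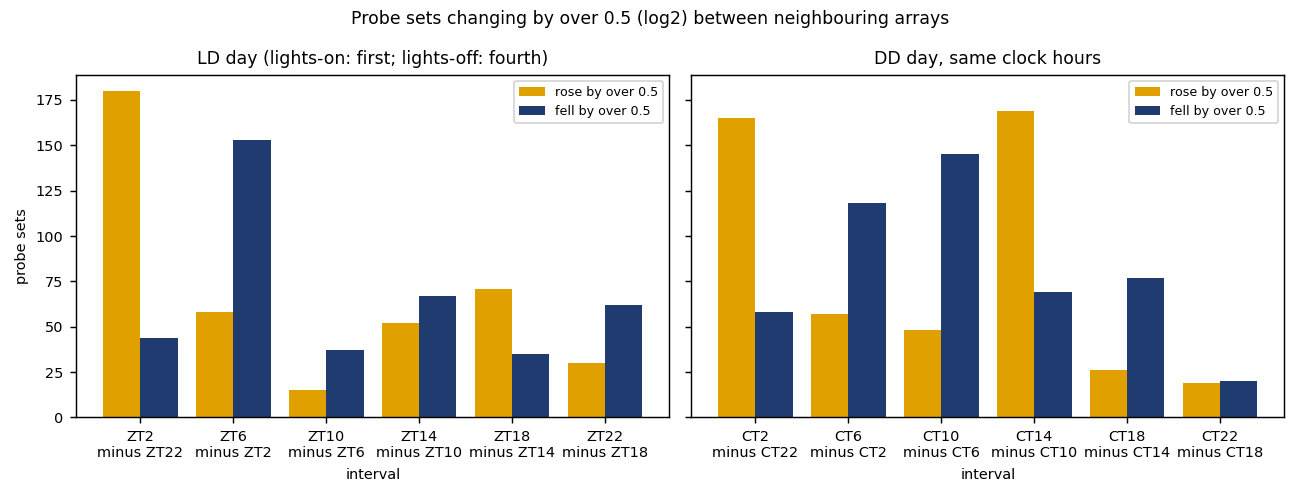
Number of probe sets (vertical axis) that rose or fell by over 0.5 on the log2 scale between neighbouring arrays, for the LD day (left) and the DD day (right); the first interval of each day sets its first array against its last. The first interval has 180 rises in LD and 165 in DD, and the interval across lights-off has 52 rises and 67 falls, against 169 and 69 at the same hours in DD.

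A square step, higher or lower in the light at both switches by over 0.5, was seen in 8 and 5 probe sets. Higher were Usp8, CG5455, CG4757, Drs and Cyp4g1, and lower Def, retinin, rgr and CG10621, among those with a symbol. rgr had 2.68, 2.79 and 2.75 in the light and 3.90, 2.99 and 3.34 in the dark, dim and without overlap (-0.67 ± 0.15, limma, adjusted p = 0.145). CG10621 read 5.19, 5.49 and 5.07 in the light and 6.02, 5.75 and 5.73 in the dark (-0.58 ± 0.12, limma, adjusted p = 0.0627), and stood lower by day in DD also (-0.38 ± 0.12). With ZT6 in place of ZT2, 26 were higher and 3 lower, and 4 and 3 met both definitions.

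Transcripts that changed within a phase fared poorly in the contrast of means. After the values were seen, 10 probe sets were found that climbed by at least 0.3 from ZT2 to ZT6 and again to ZT10 and then dropped by at least 0.5 to ZT14, 7 of them with a symbol. The same shape from CT2 to CT14 was found in 0. As the shape was defined on the LD values, this count does not show that the DD arrays were flat. CG15784 read 6.38, 6.99 and 8.67 in the light and 6.96, 6.38 and 6.39 in the dark. It was highest at the end of the light, and the 6 DD arrays lay between 6.22 and 6.46. CG8620 had 3.63, 4.31 and 5.35 in the light and 3.57, 3.51 and 3.52 in the dark. Arc2, a paralogue of the capsid-like Arc1, had 2.67, 3.70 and 4.25 in the light and 3.02, 2.63 and 2.81 in the dark, and CG2121 had 5.80, 6.64 and 7.04 in the light and 6.53, 5.53 and 5.52 in the dark. The others were CG10126, BomBc3 and BomS5. BomBc3 and BomS5 were also higher by day in DD, without overlap (0.62 ± 0.17 and 0.73 ± 0.17, against 0.60 ± 0.17 and 0.63 ± 0.17 in LD). In CG15784, Arc2 and CG2121 ZT2 lay within the range of the dark arrays, and in CG8620 it was 0.06 above them. None of the 10 passed. The second CG2121 probe set was dim and gave 0.01 ± 0.08.

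The mirror of this ramp, down through the light and up after lights-off, was found in 2 probe sets, of Lsp2 and CG11458. By another definition, also set after the values were seen, 3 probe sets declined from ZT2 to ZT6 to ZT10 and climbed from ZT14 to ZT18 to ZT22, by at least 0.5 in each phase, and 8 did the opposite. Both counts were 0 in DD, which does not show that these probe sets were flat there. t (tan), for the enzyme that frees histamine, the photoreceptor transmitter, from carcinine, read 6.69, 6.30 and 5.56 in the light and 5.91, 6.14 and 6.91 in the dark. It was lowest at the end of the light and the phases overlapped almost fully (-0.14 ± 0.23, limma, adjusted p = 0.979), while the DD arrays stayed at 6.83 to 7.20. CarT, the gene of the carcinine transporter of photoreceptors, had 3.26, 4.25 and 4.36 in the light and 3.86, 3.29 and 3.44 in the dark, with 2.69 to 3.06 in DD. lqf, an endocytic epsin gene, shared the shape of t, at 6.80, 6.59 and 6.30 in the light and 6.09, 6.75 and 6.84 in the dark. Its DD arrays also declined through the subjective day, at 6.86, 6.77 and 6.28, and read 6.82, 6.63 and 6.61 in the subjective night. Of the 8 with the opposite shape, Usp8 alone passed.

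**Figure D5:**
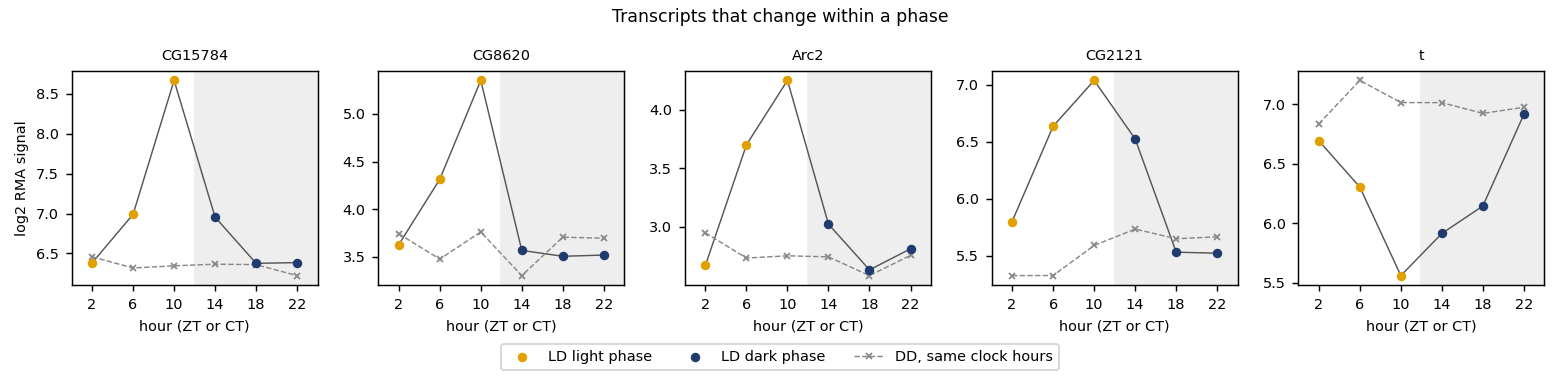
Log2 RMA signal (vertical axes, each with its own range) by hour of CG15784, CG8620, Arc2, CG2121 and t, chosen after their values were seen; filled points are LD arrays, 1 a time point, grey crosses DD arrays of the same clock hours, and the shaded hours are those of darkness in LD. The first 4 climb to ZT10 and drop after lights-off, t declines to ZT10 and recovers through the dark, and the DD arrays lack these shapes.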

How the data were processed

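RNA of 12 head samples had been hybridised to 1 array each. The authors deposited log2 values made with RMA, per the submitters' processing notes, 1 per probe set and array, from 1.52 to 13.74, with array medians of 4.10 to 4.14; its software and version are not known here. RMA equalises the arrays' distributions and compresses dim changes. No counts or detection calls were used, so the number of arrays limits the precision. Of 14010 probe sets, 44 controls were left out; 12443 had 1 symbol, 327 several and 1196 none. Of the first, 12394 were matched to RefSeq genes, with 0 symbols changed. The most alike LD arrays shared 55 identical values.

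limma 3.58.1 (R 4.3.3; 4 group means over 12 arrays, intensity trend, Benjamini-Hochberg over 13966 probe sets, 8 residual and 8.62 prior degrees of freedom) was tested on simulated data. Separation, steps and lists were counted without tests. From the lists, Acp1 and Acp65Aa (male) and the Npc2 genes (gut) were taken out by name. Named genes were those that passed, up to 4 per list by p, genes whose probe sets were all separated, the largest square steps and tim; others are said to be chosen after their values were seen or were taken from the list of separated phases. Members and lists were chosen with earlier results of these data known. Alternatives covered the arrays used, moderation, array weights, normalization, a minimum mean of 5, gene means, thresholds, a block and covariates.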

Additional observations from a re-analysis of the deposited data

Results flagged for a closer look

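In 3 genes, Lsd-1, NAT1 and Mnt, all LD light arrays lay to 1 side of the LD dark arrays while all subjective day arrays lay to the opposite side of the subjective night arrays in DD. The LD contrast less the DD contrast was 0.815 for Lsd-1, 0.733 for NAT1 and -0.283 for the Mnt probe set at 3.26, 3.29 and 3.08 in the light and 3.35, 3.33 and 3.44 in the dark. The test of the difference did not pass for any of them (limma, adjusted p = 0.121 for Lsd-1, 0.0898 for NAT1 and 0.935 for Mnt). Such opposite separation was seen in 21 probe sets higher and 33 lower in the LD light phase, beside 63 and 70 that were separated the same way on both days. Of 13966 probe sets, 785 were separated higher and 916 lower in LD, and 754 higher and 673 lower in the DD day. Whether the opposite separations exceed the number that unrelated days would give was not tested.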

How the results depend on the processing

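Against 18 light-dark probe sets, the 6 LD arrays alone gave 1, leaving out 1 array gave 2 (without ZT6) to 54 (without ZT2), leaving out ZT2, ZT18 and CT2 gave 31, array weights 28, gene means 6, the gut and male level as covariate 46, and the eIF-4a 3' minus 5' signal as covariate 3; that signal was 2.89 to 3.31 in the light and 3.14 to 3.32 in the dark. On the DD arrays the eIF-4a 3' minus 5' signal was 2.56 to 2.81 by day and 2.75 to 3.04 by night. Its part in differences of level between the LD and DD days was not tested. Without other single arrays the counts were 3 for ZT10, ZT22 and CT22, 4 for ZT18 and CT18, 8 for ZT14, 9 for CT6 and 11 for CT14. Against 0, the LD contrast minus the DD contrast gave 0 to 2 when 1 array was left out, 2 with robust moderation, 3 with array weights, 2 with the hours since the switch as a block, 3 with the gut and male covariate and 4 with the eIF-4a covariate. Steps over 0.3 and over 1.0 numbered 402 and 5 rises and 357 and 10 falls at lights-off, and 600 and 65 rises and 499 and 0 falls at lights-on, where ZT6 in place of ZT2 (chosen after seeing the data) gave 101 rises. Separated probe sets, 1701 in all, were 55 with a gap of at least 0.2. The cause of these shifts was not tested. The labels number no replicates; arrays matched by hours since the switch as a block gave 17 light-dark calls, 14 of them among the 18.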

Other observations

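The largest steps at lights-off, over 1.0, included genes not described above, chosen after their values were seen. Rises after lights-off were seen in fit, a gene of female head fat body, at 9.10, 9.14 and 8.59 in the light and 9.87, 9.37 and 9.04 in the dark, in CG11458, at 7.35, 6.99 and 6.54 in the light and 7.85, 7.58 and 7.44 in the dark, and in CG42336, at 5.97, 5.72 and 5.32 in the light and 6.46, 6.07 and 5.90 in the dark. In all 3 the lowest value was at ZT10 and the highest at ZT14, and none passed between the phases. All 3 also stood lower by day in DD, at -0.45 ± 0.16, -0.61 ± 0.18 and -0.55 ± 0.15, in this order. Their LD contrasts were -0.49, -0.66 and -0.47. From CT10 to CT14, with no light switch, they went from 8.78 to 9.10, 6.79 to 7.57 and 5.65 to 6.35. TotB, a stress-induced gene, dropped after lights-off, with 3.88, 3.99 and 4.50 in the light and 3.41, 3.73 and 3.62 in the dark. Outside that group, Gnmt, for an enzyme that methylates glycine with S-adenosylmethionine, read 9.03, 8.53 and 8.50 in the light and 8.02, 7.77 and 7.82 in the dark, without overlap (0.82 ± 0.16, limma, adjusted p = 0.0653), and stood higher by day in DD (0.76 ± 0.16).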
